A study of Mus musculus with 48 samples.

Results

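The 6 genes described here are the feedback inhibitors Socs1, Socs2, Socs3 and Cish and the STAT5 target genes Pim1 and Bcl2. They were followed in mouse skin through a study of alopecia areata in which the interleukin-15 (IL-15) pathway was blocked. Probe sets of the array whose annotation named only one of these symbols numbered 18, and the brightest probe set on average stood for each gene, giving 6 of the 18194 genes on the array. All 6 passed the filter on low signals and were among the 13650 genes tested, Socs1 with the fewest arrays that the filter allows. Socs1 and Cish each had 1 probe set, so no second measurement of those 2 genes was at hand.

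Cytokine receptors of the common gamma chain family, among them the receptor for IL-15, switch on the kinases JAK1 and JAK3, which activate the transcription factor STAT5. STAT5 in turn raises Cish and Socs2, whose protein products bind the activated receptors and damp the signal, and Pim1 and Bcl2, which favour cell growth and survival. Socs1 is the main brake on interferon gamma signalling and inhibits JAK kinases directly, and Socs3 is best known as the brake on the IL-6 family and STAT3.

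All animals were C3H/HeJ mice, the strain in which alopecia areata is known to follow a graft of skin from affected animals, and total RNA of whole skin was hybridised. The agents were named il15rb, jak3i and jak12i in the labels and are known as a blocking antibody to the IL-15 receptor beta chain, the JAK inhibitor tofacitinib and the JAK1 and JAK2 inhibitor ruxolitinib. Title week 5 held il15rb (n = 3), PBS ip (n = 4) and sham (n = 4), and title week 6 paired jak3i (n = 5) with PBS pump (n = 3) and jak12i (n = 5) with PBS gavage (n = 5). At title week 13 each of the 3 agents and each of the 3 PBS routes had 3 arrays. PBS is the saline vehicle, given by injection into the abdomen, by pump or by gavage, and il15rb was set against PBS ip, jak3i against PBS pump and jak12i against PBS gavage, a match of agent and route that is known of the study and not stated in the labels. What sham animals received, and the age and sex of the mice, are not given in the sources used here. Replicates are called biological in the series, without more on separate animals, so every p-value measures the spread between arrays.

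Of 48 arrays 47 entered these 13 groups, and 1 week 5 array was kept out because its title puts it with PBS ip while its treatment label reads IL15. Values are log2 signals, and a difference of 1 in them is a doubling of signal. Whole skin was measured throughout: the mean of 10 keratinocyte markers was at least 12.24 on every array. In whole tissue, fewer cells of a type and less RNA per cell cannot be told apart, which holds for every change below. The makeup of the arrays was uneven. The mean of 9 skeletal muscle genes was 12.54 or more in every treated array of week 13, but as low as 7.45 in PBS ip and 7.696 in PBS pump, and the mean of 11 hair shaft genes reached 10.18 in sham skin and 10.42 in jak12i skin of week 6. Altogether 6 arrays stood apart in one of these lists. Changes of members called under a single agent at week 13 are given with and without them. The spread of values within an array also differed by title week (75th percentile 8.47 to 8.68 at week 5, 8.15 to 8.35 at week 6 and 8.68 to 8.78 at week 13), so that levels were ordered within a title week alone.

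Promoter sequence, taken from RefSeq on build GRCm38.p6 as 250 bases before to 50 bases after the transcription start, was found for 5 of the 6 genes, and Socs2 had no entry. The promoters of Socs1, Socs3 and Cish are shown because they hold the letters that STAT or interferon regulatory factors are known to bind and because all 3 genes fell in jak3i skin of week 13. Capitals mark TTCNNNGAA, the core of a STAT site, which reads the same on both strands, or GAAANNGAAA on either strand, the core of an interferon regulatory factor site. The first capital of Cish is the start itself, base 1.
Cish, chr9:107296409-107296708, plus strand: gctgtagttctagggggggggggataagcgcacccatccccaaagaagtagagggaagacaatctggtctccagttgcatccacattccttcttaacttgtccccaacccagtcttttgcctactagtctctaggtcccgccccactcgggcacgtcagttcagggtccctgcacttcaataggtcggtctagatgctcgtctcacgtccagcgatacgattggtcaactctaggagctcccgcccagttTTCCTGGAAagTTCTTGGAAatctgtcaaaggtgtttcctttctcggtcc
Socs3, chr11:117969317-117969616, minus strand: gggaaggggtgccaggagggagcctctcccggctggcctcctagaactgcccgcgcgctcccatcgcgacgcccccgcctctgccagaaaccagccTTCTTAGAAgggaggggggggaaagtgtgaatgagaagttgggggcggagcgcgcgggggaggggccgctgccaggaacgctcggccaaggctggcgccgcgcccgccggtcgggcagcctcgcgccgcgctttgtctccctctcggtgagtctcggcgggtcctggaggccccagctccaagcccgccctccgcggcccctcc
Socs1, chr16:10785487-10785786, minus strand: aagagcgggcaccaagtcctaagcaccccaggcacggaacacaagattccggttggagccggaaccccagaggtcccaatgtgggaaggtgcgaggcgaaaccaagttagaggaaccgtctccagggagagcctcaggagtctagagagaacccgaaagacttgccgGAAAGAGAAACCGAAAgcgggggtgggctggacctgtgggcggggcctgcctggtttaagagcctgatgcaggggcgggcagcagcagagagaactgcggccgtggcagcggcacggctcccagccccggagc
Cish holds 2 STAT letter matches, TTCCTGGAA beginning at base 1 and TTCTTGGAA beginning at base 12. Socs3 holds 1, TTCTTAGAA, beginning at base -154. Socs1 holds none of these but 2 interferon regulatory factor matches that overlap, GAAAGAGAAA from base -83 and GAAACCGAAA from base -77. Among 32851 promoter windows of the same length, 8.30% held TTCNNNGAA and 0.457% held it at least 2 times, while 3.44% held GAAANNGAAA and 0.225% held it at least 2 times. The windows of Pim1, which has 2 starts, and of Bcl2 held neither set of letters. A match is a run of letters and was not tested as a binding site in these data.

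**Figure D1:**
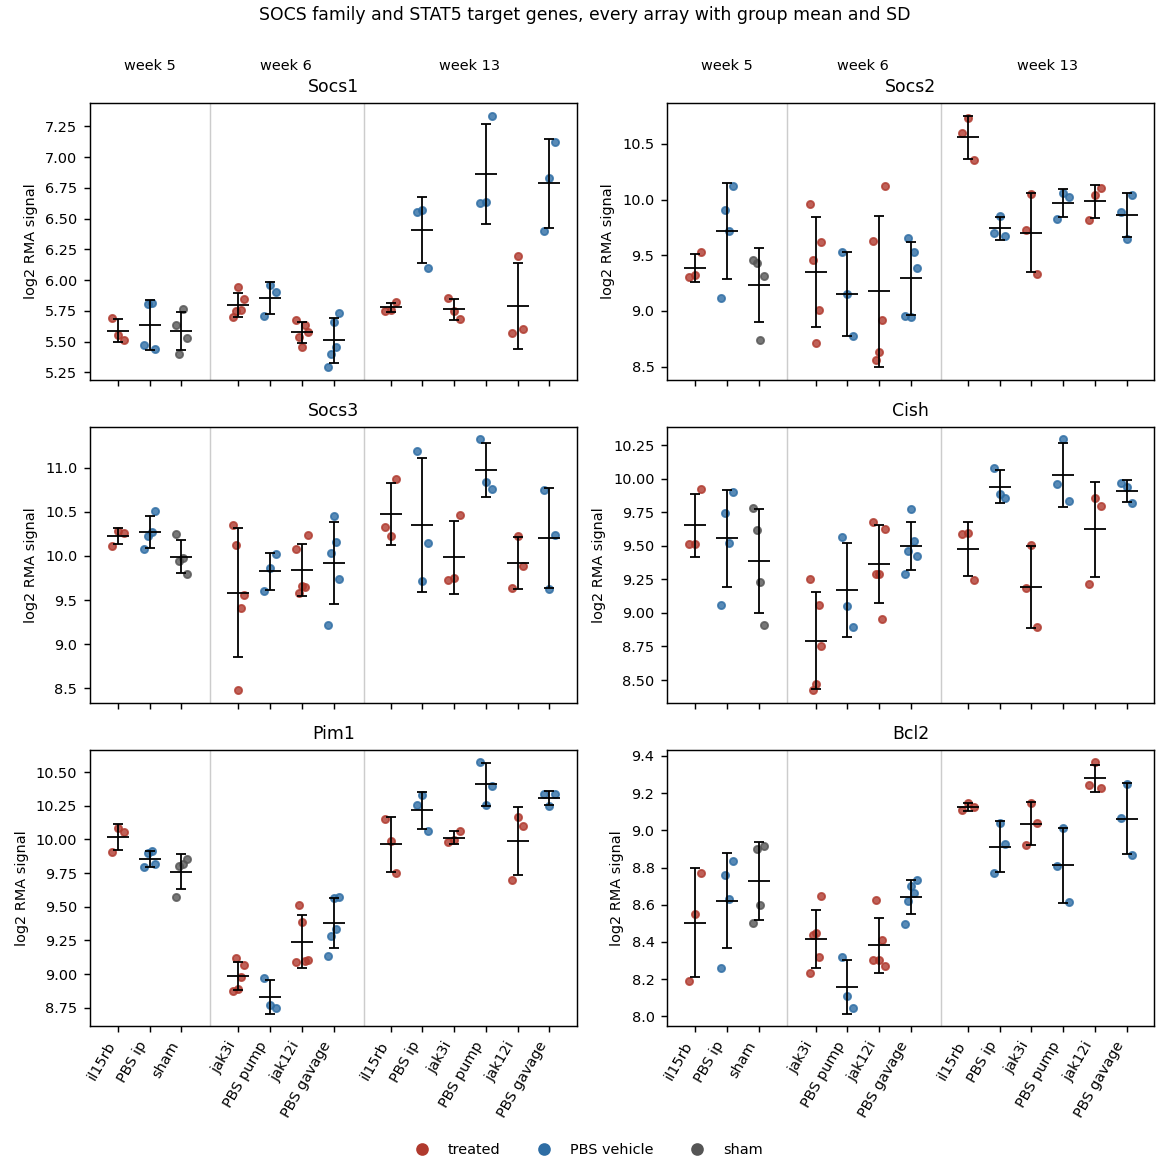
Log2 RMA signal of the 6 genes on every array (points), by group and title week, with bars for the group mean and SD. At week 13 the treated arrays of Socs1 lie between 5.57 and 6.20, and those of the 3 PBS groups between 6.10 and 7.34.

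Socs1, which restrains JAK kinases and above all the interferon gamma signal, was lower in treated skin at week 13 under all 3 agents. In il15rb skin it measured 5.75, 5.76 and 5.82, against 6.56, 6.57 and 6.10 in PBS ip skin. The jak3i arrays read 5.85, 5.75 and 5.68, against 6.63, 6.63 and 7.34 with PBS pump. Under jak12i the values were 5.57, 6.20 and 5.61, against 6.40, 6.83 and 7.13 with PBS gavage. In none of the 3 pairs did treated and vehicle arrays overlap, though the highest jak12i array lay above the lowest PBS ip array. Socs1 fell under il15rb (log2 change -0.63 ± 0.17 SE, 1.55-fold, adjusted p = 0.00477), under jak3i (-1.10 ± 0.17, 2.15-fold, adjusted p = 6.85e-06) and under jak12i (-0.99 ± 0.17, 1.99-fold, adjusted p = 4.37e-05). All p-values come from limma and are adjusted over the 13650 genes of a comparison. Averaged over agents the fall was 0.91 ± 0.10 (1.88-fold, adjusted p = 1.10e-09).

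The treated week 13 level of Socs1 was close to the lowest signals on the array. Group means of 5.78 ± 0.04 in il15rb, 5.76 ± 0.09 in jak3i and 5.79 ± 0.35 in jak12i skin (SD, n = 3 each) stood above the highest 25th percentile of a week 13 array, 5.38, a mark taken as near background. The vehicles averaged 6.41 ± 0.27 with PBS ip, 6.87 ± 0.41 with PBS pump and 6.79 ± 0.37 with PBS gavage. The order at week 13 ran PBS pump, PBS gavage, PBS ip, jak12i, il15rb and jak3i, with the arrays of each neighbouring pair overlapping. Without PBS ip replicate 3 and PBS pump replicate 2, which are low in muscle genes, and without the other 4 arrays apart, the change was -0.79 ± 0.18 under il15rb (adjusted p = 0.00301) and -1.22 ± 0.18 under jak3i (adjusted p = 1.02e-05). None of those arrays was in the jak12i or PBS gavage groups of week 13. The jak12i change therefore stayed at -0.99 and only its SE moved, to 0.16 (adjusted p = 3.18e-05). Leaving out any 1 array, the change lay between -0.79 and -0.55 under il15rb and its adjusted p reached 0.0374 at most. When the il15rb and PBS ip arrays were fitted alone the adjusted p was 0.0568.

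Cish encodes CIS, the classical STAT5-induced inhibitor of IL-2 and IL-15 receptor signalling, and at week 13 it passed the test under jak3i alone. The jak3i arrays read 9.18, 9.51 and 8.90, against 9.96, 10.29 and 9.83 with PBS pump, without overlap. Cish fell by 0.83 ± 0.23 in that pair (1.78-fold, adjusted p = 0.011). In il15rb skin it was 9.59, 9.60 and 9.25, against 10.08, 9.88 and 9.86 in PBS ip skin. These arrays too did not overlap, yet the difference of -0.46 ± 0.23 missed the threshold (adjusted p = 0.139). With jak12i the values of 9.22, 9.86 and 9.80, against 9.97, 9.94 and 9.82 with PBS gavage, overlapped, and the difference was -0.28 ± 0.23 (adjusted p = 0.408). Over the 3 agents together Cish fell by 0.53 ± 0.13 (1.44-fold, adjusted p = 0.00136). Its call under jak3i was lost without jak3i replicate 3 (-0.68, adjusted p = 0.0835) or without the muscle-poor PBS pump replicate 2, where Cish fell by 0.70 (adjusted p = 0.0617). With all 6 arrays apart left out the Cish change was again -0.70 ± 0.26 (adjusted p = 0.0635), since PBS pump replicate 2 is the only one of them in this pair.

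Socs3, induced by STAT3 and by many inflammatory signals, had the widest spread within groups of the 6 (SD 0.434). At week 13 it read 9.73, 9.75 and 10.47 in jak3i skin, against 11.32, 10.84 and 10.76 with PBS pump, and fell by 0.99 ± 0.34 (1.99-fold, adjusted p = 0.0424). In il15rb skin it was 10.32, 10.23 and 10.87, against 11.19, 9.72 and 10.15 in PBS ip skin, a difference of 0.12 ± 0.34 (adjusted p = 0.825). The jak12i arrays held 9.64, 10.23 and 9.88, against 10.75, 9.62 and 10.24 with PBS gavage, a difference of -0.29 ± 0.34 (adjusted p = 0.598). Arrays overlapped in both of those pairs. The jak3i call rests on the chosen probe set and on most single arrays: the other 2 Socs3 probe sets differed by -0.50 ± 0.32 and -0.49 ± 0.23 (adjusted p = 0.357 and 0.195 over all probe sets), and the adjusted p passed 0.05 without jak3i replicate 1 or 2 (0.149 and 0.122) or without any 1 of the PBS pump arrays (0.164, 0.0605 and 0.0525). Without all 6 arrays apart, of which only PBS pump replicate 2 is in this pair, the Socs3 change was -1.06 ± 0.40 (adjusted p = 0.0735). Against PBS of another route it was -0.22 (adjusted p = 0.753). The chosen probe set carries the suffix that marks probes which can also match other transcripts.

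Socs2 encodes a STAT5-induced inhibitor best known for limiting growth hormone signalling. It was the 1 member that passed as higher in a single comparison of an agent with its vehicle. In il15rb skin of week 13 it read 10.59, 10.73 and 10.35, against 9.70, 9.85 and 9.67 in PBS ip skin, above every other array of that week. Socs2 rose by 0.82 ± 0.30 (1.77-fold, adjusted p = 0.0413). With jak3i it was 9.73, 10.05 and 9.33, against 9.83, 10.06 and 10.02 with PBS pump, and with jak12i 9.81, 10.04 and 10.10, against 9.89, 9.65 and 10.04 with PBS gavage. Both pairs overlapped and differed by -0.27 and 0.12 (SE 0.30, adjusted p = 0.605 and 0.809). Of the 6 Socs2 probe sets all had a positive difference under il15rb, and a dim one, with a mean of 5.86 over 47 arrays, rose by 0.98 ± 0.14 (adjusted p = 7.22e-06 over all probe sets), while the others missed that threshold.

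The Socs2 call was lost without any 1 il15rb array (adjusted p = 0.0940, 0.114 and 0.0575) and without PBS ip replicate 1 or 3 (0.111 and 0.121). Leaving out all 6 arrays apart, of which only PBS ip replicate 3 is in this pair, gave a difference of 0.78 ± 0.32 (adjusted p = 0.0917). Against PBS of another route of week 13 the difference was 0.59 (adjusted p = 0.134). Other genes moved with it in the same comparison. All 5 adipocyte markers, 8 of 9 skeletal muscle markers and 5 of 6 endothelial markers passed as higher in il15rb skin. The adipocyte mean ran from 11.11 to 11.54 in il15rb arrays, against 8.93 to 10.14 in PBS ip arrays, and the muscle mean from 13.20 to 13.60 in il15rb, against 7.45 to 12.85 in PBS ip. Adipocyte markers were also higher under jak3i (3 of 5) and jak12i (5 of 5), where Socs2 did not pass. The part of these tissues in the Socs2 result was not tested.

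Pim1, a serine/threonine kinase that promotes cell survival and is a standard STAT5 target, had log2 changes of -0.25 to -0.39 at week 13. At week 13 the jak3i arrays read 9.98, 9.996 and 10.07, against 10.57, 10.25 and 10.40 with PBS pump, without overlap, and Pim1 fell by 0.39 ± 0.12 (1.31-fold, adjusted p = 0.0231). The il15rb arrays read 10.15, 9.99 and 9.75, against 10.25, 10.33 and 10.06 in PBS ip skin, a difference of -0.25 ± 0.12 (adjusted p = 0.127). In jak12i skin the values were 9.70, 10.17 and 10.10, against 10.34, 10.25 and 10.34 with PBS gavage, a difference of -0.32 ± 0.12 with no overlap (adjusted p = 0.0561). Averaged over the agents Pim1 fell by 0.32 ± 0.07 (1.25-fold, adjusted p = 0.00029), and its second probe set also fell, by 0.25 ± 0.08 (adjusted p = 0.0188 over all probe sets). Under jak3i that probe set differed by -0.32 ± 0.14 and did not pass (adjusted p = 0.165 over all probe sets). Against PBS of another route Pim1 missed under jak3i (-0.29, adjusted p = 0.123) and passed under il15rb and jak12i (-0.44 and -0.42, adjusted p = 0.00595 and 0.008). The jak3i call was lost without jak3i replicate 1 or 2 (adjusted p = 0.0729 and 0.0559) or PBS pump replicate 1 or 3 (0.126 and 0.0506). Without all 6 arrays apart, of which only PBS pump replicate 2 is in the jak3i pair, the Pim1 change was -0.47 ± 0.12 under jak3i (adjusted p = 0.00647). None of the 6 is in the jak12i pair, where the Pim1 change stayed at -0.32. Its SE fell to 0.11 and it passed there (adjusted p = 0.0297), which is no check on the makeup of that pair.

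Bcl2, the founding inhibitor of mitochondrial cell death, went the other way. In il15rb skin of week 13 it read 9.11, 9.15 and 9.12, against 8.77, 9.04 and 8.93 in PBS ip skin. The jak3i arrays read 8.92, 9.15 and 9.04, against 8.81, 9.01 and 8.61 with PBS pump, and the jak12i arrays 9.24, 9.36 and 9.23, against 9.07, 9.25 and 8.87 with PBS gavage. The differences of 0.21, 0.22 and 0.22 (SE 0.14) did not pass singly (adjusted p = 0.263, 0.282 and 0.274), and the il15rb pair alone was free of overlap. Averaged over the 3 agents Bcl2 rose by 0.22 ± 0.08 (1.16-fold, adjusted p = 0.0226). Probe sets of Bcl2 disagreed: the one with a mean of 7.29 rose by 0.57 ± 0.12 under il15rb and 0.39 ± 0.12 under jak12i (adjusted p = 0.00122 and 0.029 over all probe sets), while those with means of 7.48 and 5.87 differed by -0.07 and -0.16 in the average (adjusted p = 0.648 and 0.341). The averaged rise did not pass without PBS ip replicate 1, PBS pump replicate 3 or PBS gavage replicate 3 (adjusted p = 0.0543, 0.0615 and 0.0629), nor with the mean of all Bcl2 probe sets (0.095).

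**Figure D2:**
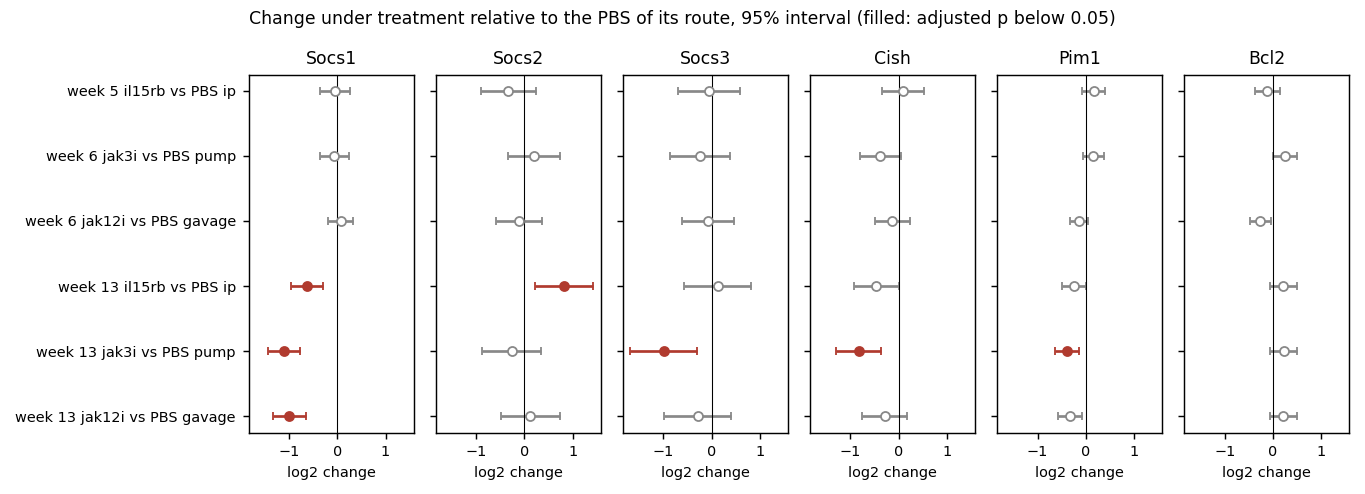
Log2 change of each gene in 6 comparisons of an agent with the PBS of its route, with 95% intervals. Filled points passed an adjusted p of 0.05: none at weeks 5 and 6, and at week 13 Socs1 under all 3 agents, Socs2 under il15rb, and Socs3, Cish and Pim1 under jak3i.

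Counted over the 6 genes, week 13 gave 1 lower and 1 higher call under il15rb, where 10.6% of all genes tested were called lower and 15.1% higher. The jak3i comparison called 4 of 6 lower and 0 higher, against 6.32% of all genes lower and 9.66% higher. That count of 4 became 2 to 3 with any 1 array left out, and 1 with only the jak3i and PBS pump arrays fitted. Under jak12i 1 of 6 was lower and 0 higher, against 10.3% and 11.6% of all genes. The median change of the 6 was -0.06, -0.61 and -0.29 in the order il15rb, jak3i and jak12i, beside 0.01, 0.03 and 0.02 for all genes. In the average over agents 3 of 6 genes fell and 1 rose, where 20.5% of all genes fell and 26.5% rose. In the plot of changes by comparison Socs1 is the 1 gene past the threshold under all 3 agents.

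At weeks 5 and 6 no member passed in any comparison of an agent with PBS. Over all genes 0.0733% were called under il15rb at week 5, 4.10% under jak3i at week 6 and 9.58% under jak12i at week 6. The members at an unadjusted p under 0.05 numbered 0, 1 and 1, beside 549, 2177 and 3479 of the 13650 genes tested. Bcl2 was the member in both week 6 cases, with 0.26 ± 0.12 under jak3i (adjusted p = 0.29) and -0.26 ± 0.11 under jak12i (adjusted p = 0.115), opposite signs. Socs1 was even across week 5, with means of 5.59 ± 0.09 in il15rb, 5.63 ± 0.20 in PBS ip and 5.58 ± 0.15 in sham skin (SD, n = 3, 4 and 4). At week 6 it averaged 5.80 ± 0.10 in jak3i against 5.86 ± 0.13 in PBS pump skin, and 5.58 ± 0.08 in jak12i against 5.51 ± 0.18 in PBS gavage skin (SD, n = 5, 3, 5 and 5). Those jak12i and PBS gavage means lie under 5.61, the near-background mark of week 6, so a lower Socs1 level could not be read there. The PBS pump mean of 5.86, and the PBS ip mean of 5.63 beside a week 5 mark of 5.43, left little room for a fall. The 95% intervals of the Socs1 change ran from -0.36 to 0.27 under il15rb at week 5, from -0.36 to 0.24 under jak3i and from -0.19 to 0.33 under jak12i.

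Arrays of the other 5 genes at weeks 5 and 6 overlapped between each agent and its vehicle. Socs2 averaged 9.39 ± 0.13 in il15rb, 9.72 ± 0.43 in PBS ip and 9.23 ± 0.33 in sham skin of week 5, and from 9.15 to 9.35 in the 4 groups of week 6, where single arrays spanned 8.56 to 10.12 and both of these extremes were jak12i arrays. Socs3 ran from 9.99 to 10.27 in the group means of week 5 and from 9.58 to 9.92 in those of week 6, its lowest array being a jak3i one at 8.48. Of the 4 groups of week 6 Cish was lowest on average in jak3i skin, at 8.79 ± 0.36, against 9.17 ± 0.35 with PBS pump (SD, n = 5 and 3), a difference of -0.38 ± 0.21 (adjusted p = 0.381), and 9.37 ± 0.29 in jak12i against 9.496 ± 0.18 in PBS gavage skin (n = 5 each). In week 5 Cish averaged 9.65 ± 0.24 in il15rb, 9.55 ± 0.36 in PBS ip and 9.39 ± 0.39 in sham skin.

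Pim1 and Bcl2 differed between the 2 PBS groups of week 6. With PBS gavage Pim1 read 9.14, 9.29, 9.56, 9.33 and 9.57, against 8.97, 8.77 and 8.75 with PBS pump, a rise of 0.55 ± 0.11 (adjusted p = 0.000153). Bcl2 read 8.50, 8.62, 8.70, 8.66 and 8.73 with PBS gavage, against 8.32, 8.11 and 8.05 with PBS pump, a rise of 0.48 ± 0.12 (adjusted p = 0.00207). With the mean of all probe sets of a gene the Pim1 difference was 0.16 (adjusted p = 0.224), no longer passing, and the Bcl2 difference was 0.26 (adjusted p = 0.0151). Neither pair overlapped, 37.2% of all genes were called between these PBS groups, and agents of week 6 were compared within their own route. The 25th percentile of the arrays was 5.46 to 5.48 with PBS gavage and 5.54 to 5.59 with PBS pump, and its part in the difference was not tested. The order of Pim1 that week was PBS gavage at 9.38 ± 0.19, jak12i at 9.24 ± 0.20, jak3i at 8.99 ± 0.11 and PBS pump at 8.83 ± 0.12, with each neighbouring pair of groups overlapping, and that of Bcl2 was PBS gavage, jak3i, jak12i and PBS pump (8.64, 8.42, 8.38 and 8.16), also with overlap between neighbours. Between the vehicles of week 13 no member passed, with 0.0513% of all genes called in PBS pump against PBS ip, 0% in PBS gavage against PBS ip and 0.0513% in PBS gavage against PBS pump by limma. At an unadjusted p under 0.05 there were 1000, 1526 and 1164 genes in those comparisons, 1 member in each.

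The comparison of PBS ip with sham at week 5 asks whether vehicle-treated skin differed from skin of sham animals. No member passed in it, nor did any in il15rb against sham, and 0.0293% of all genes were called in either. Socs2 differed most in the first, by 0.48 ± 0.26 (adjusted p = 0.9999, unadjusted p = 0.0727). Pim1 read 9.91, 10.09 and 10.06 in il15rb skin, against 9.57, 9.80, 9.82 and 9.85 in sham skin, free of overlap at a difference of 0.26 ± 0.11 (adjusted p = 0.377). Bcl2 had means of 8.50 ± 0.29 in il15rb, 8.62 ± 0.26 in PBS ip and 8.73 ± 0.21 in sham skin, overlapping in all pairs.

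Whether the agents differed from each other was tested as the difference of their effects at week 13, for 3 pairs and 6 genes. No member passed, and 0.00733% of all genes did in each pair, jak3i minus il15rb, jak12i minus il15rb and jak3i minus jak12i. The members at an unadjusted p under 0.05 numbered 2, 0 and 0, beside 940, 848 and 899 of the 13650 genes tested. Those members were Socs2 and Socs3 in jak3i minus il15rb, at -1.09 (95% interval -1.95 to -0.22, adjusted p = 0.525) and -1.12 (-2.09 to -0.14, adjusted p = 0.61). For Socs1 the intervals were -0.95 to 0.00 for jak3i minus il15rb, -0.84 to 0.11 for jak12i minus il15rb and -0.58 to 0.36 for jak3i minus jak12i. Cish, called under jak3i alone, differed by -0.55 between jak3i and jak12i (-1.21 to 0.11) and by -0.37 between jak3i and il15rb (-1.03 to 0.29). At week 6 jak3i minus jak12i called no member, with 2.37% of all genes called, and Bcl2 came nearest at 0.52 ± 0.16 (adjusted p = 0.0796).

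The effect of an agent at week 13 minus its effect at the earlier time was also tested directly. For jak3i the Socs1 effect was lower at week 13 than at week 6 (difference -1.04 ± 0.22, adjusted p = 0.00234) and so was the Pim1 effect (-0.55 ± 0.16, adjusted p = 0.0277), with 9.18% of all genes called. The jak12i difference was -1.06 ± 0.21 for Socs1 (adjusted p = 0.000784), with 16.1% of all genes called, and Bcl2 missed at 0.48 ± 0.17 (adjusted p = 0.0554). For il15rb, week 13 minus week 5, 10.6% of all genes were called and no member was, Socs1 at -0.59 ± 0.23 (adjusted p = 0.0866) and Socs2 at 1.15 ± 0.41 (adjusted p = 0.0642). With the mean of all probe sets the Pim1 difference for jak3i was -0.31 (adjusted p = 0.189). By the brightest probe set it was lost without any 1 of several arrays, for example without PBS pump replicate 1 of week 13 (-0.47, adjusted p = 0.0869). Title weeks differ in the spread of values, and its part in these differences was not tested. With PBS pump the week 6 Socs1 mean of 5.86 was close to the near-background mark of 5.61. With PBS gavage it was under that mark, at 5.51. Little or no room was left for a fall at week 6, so the Socs1 differences cannot tell a later effect from this limit.

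Genes around the members were grouped into lists by known role. Lists share some genes. Gzmb and Prf1 are also among the NK and cytotoxic markers, Il4ra is also listed as a STAT3 target, and Bcl2l1 and Mcl1 are also in the BCL2 family. Other STAT5 targets moved in both directions. Of 19 tested, 4 were lower and 0 higher under il15rb, 7 lower and 1 higher under jak3i, and 5 lower and 3 higher under jak12i, with medians of -0.05, -0.16 and -0.01. Gzmb, the killing protease of cytotoxic lymphocytes, fell in il15rb, jak3i and jak12i skin (-3.45, -4.67 and -3.75). Lta, a lymphocyte cytokine, fell under il15rb and jak12i (-1.26 and -1.56) and by at least 1.78 on the log2 scale under jak3i, where its treated mean of 5.36 lay near background. Pim2, a close relative of Pim1, fell by 0.45 under il15rb (adjusted p = 0.0214), and Prf1, which forms the pores through which granzymes enter, fell under il15rb and jak3i (-1.13 and -1.73). Ctla4, an inhibitory receptor of T cells, fell by 1.40 under jak3i. In contrast Pim3 and Spry1, an inhibitor of growth factor signalling, rose under jak12i by 0.78 and 0.60. The part of lymphocytes in the falls of Gzmb, Lta, Prf1 and Ctla4 was not tested.

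**Figure D3:**
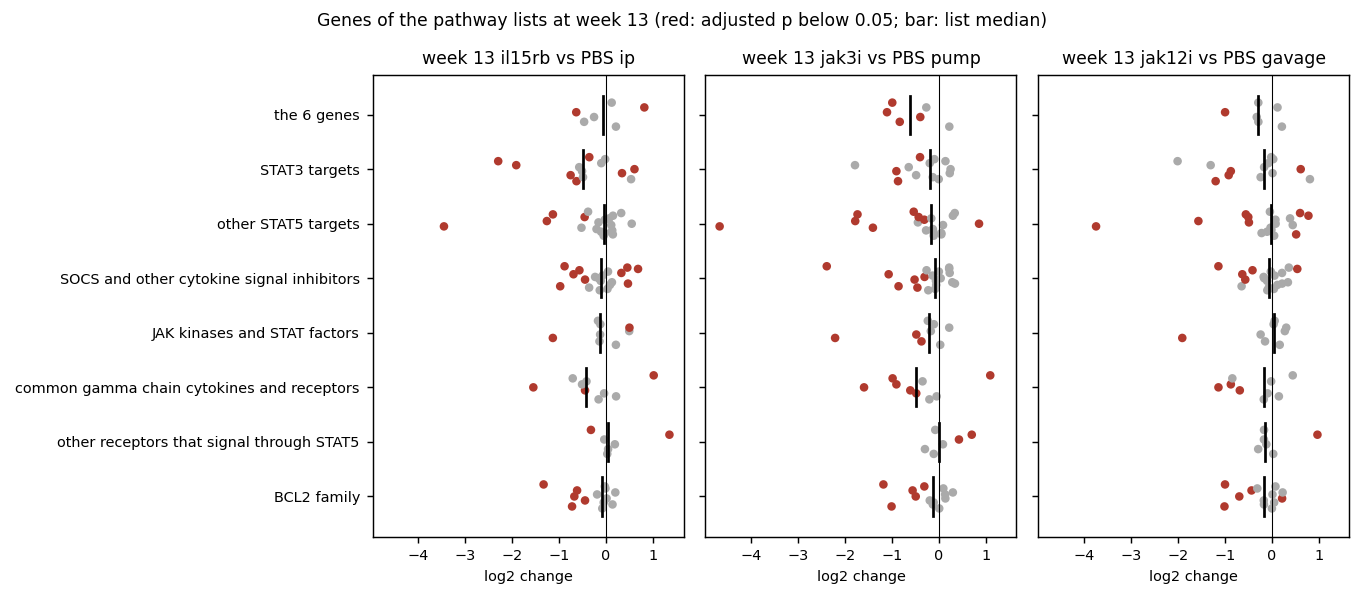
Log2 change of every tested gene of the 6-gene set and of 7 lists at week 13, 1 panel per agent against the PBS of its route, with points in red past an adjusted p of 0.05 and a bar at the list median. Red points lie on both sides of 0 in several lists, and the other STAT5 targets have medians of -0.05, -0.16 and -0.01 in the order il15rb, jak3i and jak12i.

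The remaining inhibitors of cytokine signalling moved in both directions. Of 19 tested, 5 were lower and 4 higher under il15rb, 6 lower and 0 higher under jak3i and 4 lower and 1 higher under jak12i, with medians of -0.11, -0.08 and -0.06. Socs6 rose by 0.69 under il15rb (adjusted p = 0.000101) and 0.55 under jak12i (adjusted p = 0.00147), whereas Socs5, the relative that dampens IL-4 and growth factor signals, fell in those comparisons (-0.56 and -0.41). Usp18, which restrains type I interferon receptors, fell under jak3i and jak12i (-2.39 and -1.14). Ptpn1, a phosphatase of JAK2 and TYK2, fell under all 3 agents (-0.44 under il15rb, -0.52 under jak3i and -0.56 under jak12i). The leukocyte phosphatase Ptprc (CD45) fell by 1.07 under jak3i, and Dusp6, a phosphatase of ERK kinases, fell under il15rb and jak3i (-0.97 and -0.86).

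Among JAK kinases and STAT factors 8 of 11 listed were tested, and 1 was lower and 1 higher under il15rb, 3 lower under jak3i and 1 lower under jak12i. Stat2, itself induced by interferon, fell under each agent (-1.13 under il15rb, -2.21 under jak3i and -1.91 under jak12i). Stat5b rose by 0.50 under il15rb (adjusted p = 0.00677), and Stat5a differed by 0.50 there (adjusted p = 0.0634). Jak2 and Stat3 fell under jak3i (-0.37 and -0.48). Of the receptors upstream, Il2rb, the beta chain shared by the IL-2 and IL-15 receptors and the target of the antibody, fell in il15rb, jak3i and jak12i skin (-1.55, -1.59 and -1.14).

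Receptors and ligands of the common gamma chain family were lower in 2 of 9 cases under il15rb, 5 under jak3i and 3 under jak12i, and higher in 1, 1 and 0. Tslp, an epithelial cytokine, rose by 1.02 under il15rb and 1.10 under jak3i, and Il21r fell under il15rb and jak12i (-0.44 and -0.68). Il4ra fell under jak3i and jak12i (-0.90 and -0.87), and Il15ra fell by 0.48 under jak3i. Ghr, the growth hormone receptor whose signal Socs2 limits, rose under each agent, by 1.36 under il15rb (adjusted p = 3.71e-07), 0.70 under jak3i (adjusted p = 0.00298) and 0.98 under jak12i (adjusted p = 5.40e-05). It was 1 of 6 genes tested among other receptors that signal through STAT5, where 1 was lower and 1 higher under il15rb (Il3ra fell by 0.32), 2 were higher under jak3i (Epor rose by 0.43) and 1 was higher under jak12i.

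STAT3 targets passed as lower in 5 of 13 under il15rb, 3 under jak3i and 3 under jak12i, and as higher in 2, 0 and 1, with medians of -0.49, -0.19 and -0.16. Bcl3, a nuclear partner of NF-kappaB, fell under each (-0.63 under il15rb, -0.87 under jak3i and -1.20 under jak12i), and Fosl1 under il15rb and jak12i (-0.75 and -0.92). Il6ra rose by 0.61 and 0.62 in those 2 comparisons. Socs3, the feedback gene of this branch, passed under jak3i alone.

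The BCL2 family had 5 of 13 lower and 0 higher under il15rb, 5 lower and 0 higher under jak3i, and 4 lower and 1 higher under jak12i. All 4 that led were genes that promote cell death. Bak1 changed by -0.72 under il15rb, -1.01 under jak3i and -1.01 under jak12i, and Bid by -0.67, -0.49 and -0.69. In the same order Bok changed by -0.61, -0.56 and -0.43 and Pmaip1 (NOXA) by -1.33, -1.18 and -0.996. Bcl2 differed upward by 0.21 to 0.22 in those comparisons.

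At week 6, which was not tested against week 13 for these lists, calls were as follows. Under jak3i 4 of 19 cytokine signal inhibitors were lower, led by Ptprc (-1.41, adjusted p = 8.29e-05) and Usp18 (-1.52, adjusted p = 0.000445), and Bmf of the BCL2 family fell by 0.97. Csf2ra and Crlf2 fell there (-0.52 and -0.43). In the same comparison 7 of 11 macrophage markers were lower, with a list median of -1.12 and a mean of 8.59 to 9.48 in jak3i arrays, against 9.82 to 10.61 with PBS pump, and their part in the Ptprc fall was not tested. Under jak12i 5 of 8 JAK kinases and STAT factors were lower, among them Jak2, Stat3, Stat6 and Tyk2 (-0.36, -0.43, -0.32 and -0.33), and 5 of 19 inhibitors were lower, although against the other PBS route of that week Jak2 and Stat6 changed sign. Of 6 other receptors that signal through STAT5, 3 were lower under jak12i, the GM-CSF receptor family genes Csf2rb, Csf2rb2 and Csf2ra (-0.55, -0.47 and -0.36). No other STAT5 target passed at week 5 or week 6.

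Lymphocyte markers were lower in treated skin at week 13, where Socs1 fell. Some were also lower at weeks 5 and 6, where Socs1 was near or close to background and did not pass. Of 10 T cell markers tested at week 13, 9 were lower under il15rb, 8 under jak3i and 6 under jak12i, and 10 of 10 NK and cytotoxic markers were lower under each. Over 12 T cell markers the mean signal was 6.83 to 6.99 in il15rb, 6.65 to 6.82 in jak3i and 6.99 to 7.25 in jak12i arrays, against 7.71 to 8.28 with PBS ip, 7.62 to 8.19 with PBS pump and 7.70 to 7.96 with PBS gavage. The NK and cytotoxic mean was 5.99 to 6.28, 6.03 to 6.14 and 6.24 to 6.67 in the agents in that order, against 7.59 to 8.83, 8.19 to 8.78 and 7.93 to 8.40 in their vehicles. In treated skin 3, 2 and 1 of the 12 T cell markers and 5, 5 and 3 of the 12 NK and cytotoxic markers were near background, Gzma and Klrc1 under every agent. Neither list overlapped between an agent and its vehicle, and the part of these cells in the falls of Socs1, Cish, Socs3 and Pim1 was not tested. Of 11 macrophage markers 1, 1 and 2 were lower.

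At week 5 under il15rb 2 of 10 T cell markers and 3 of 10 NK and cytotoxic markers were lower. The T cell mean was 6.88 to 6.97 in il15rb arrays, against 7.35 to 7.51 with PBS ip, and the NK and cytotoxic mean 5.89 to 6.05 in il15rb, against 6.40 to 6.84 with PBS ip. At week 6 under jak3i 1 of 10 of each list was lower, with a T cell mean of 6.94 to 7.04 in jak3i arrays, against 7.28 to 7.34 with PBS pump, and an NK and cytotoxic mean of 5.94 to 6.04 in jak3i, against 6.45 to 6.52 with PBS pump. Neither list overlapped in these comparisons, in which Socs1 changed by -0.05 and -0.06 and did not pass. Socs1 vehicle means, 5.63 with PBS ip and 5.86 with PBS pump, lay close to the near-background marks of 5.43 and 5.61. Little room was left for a fall, so these comparisons cannot show whether Socs1 follows the lymphocyte markers. Under jak12i at week 6, where 2 and 3 of 10 were lower, both list means overlapped with PBS gavage.

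**Figure D4:**
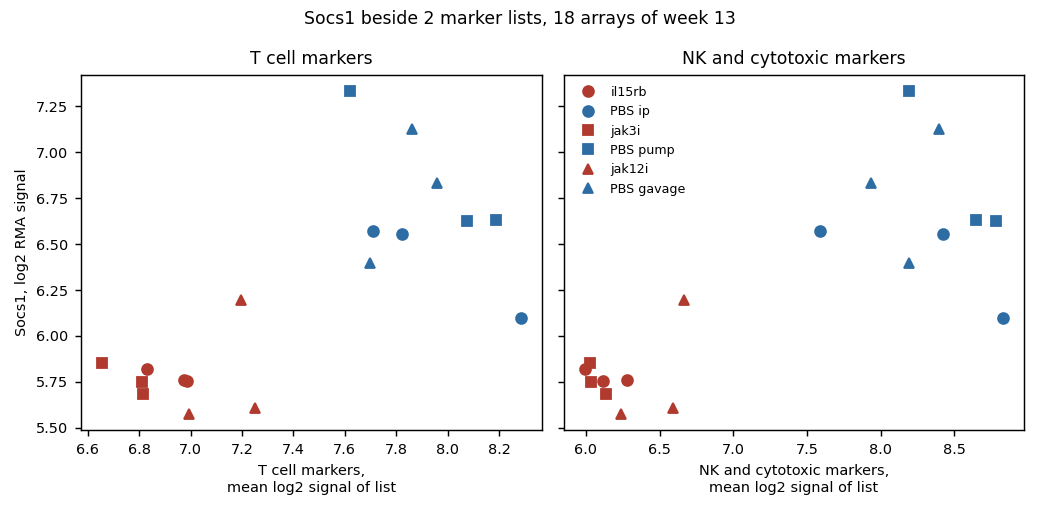
Socs1 (log2 RMA signal) on each of the 18 week 13 arrays against the mean log2 signal of T cell markers and of NK and cytotoxic markers. Treated arrays (red) lie at lower left and PBS arrays (blue) at upper right in both panels, with Socs1 at 5.57 to 6.20 in treated and 6.10 to 7.34 in PBS arrays.

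Socs1 was also set beside the hair shaft genes. Their mean at week 13 was 6.34 to 9.44 in il15rb, 9.24 to 10.81 in jak3i and 6.19 to 7.01 in jak12i arrays, against 7.56 to 10.55 with PBS ip, 9.12 to 11.45 with PBS pump and 9.08 to 10.83 with PBS gavage. Socs1 fell under jak3i, where 0 of 11 hair shaft genes passed, and under jak12i, where 9 of 11 were lower. Cell division genes were also lower under jak12i (9 of 9), with 1 of 9 lower under il15rb and 0 under jak3i. Hair shaft means of jak12i and PBS gavage arrays did not overlap, and none of the 6 arrays left out was in that pair. The part of hair shaft makeup and cell division in the changes of Socs1 and the other members was not tested.

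Likeness to each member was measured as Pearson's r over the 47 arrays with the mean of each title week removed, a description in which all genes share the arrays and their tissue makeup. Socs1 was most like Degs2 (r = 0.84), Arhgap8, Lta (0.83), Mgarp and the T cell chemokine Ccl17 (0.82). Pim1 was most like Prdm1 (0.83), the transcription factor Blimp1, then Prss8, Ankrd22, Kcnk6 and Mxd1 (0.81). Cish had Aftph (0.72), Pde12, Panx1, Clca2 and Il1rap (0.70) nearest, and Bcl2 had Btd (0.71), Tmtc2, Unc13b, Hnrnph3 and Frem2 (0.70). Socs2 was nearest to the progesterone receptor Pgr (0.72), Lyve1, a marker of lymphatic vessels, Greb1, Stat5a (0.67) and Alas1 (0.65). Socs3 had the weakest neighbours, Mcl1 at 0.57 and Efhd2 at 0.55 with Dnajc5, Nfkbiz and Nras between. No member was among the 5 nearest genes of another.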

How the data were processed

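Skin RNA was measured on 48 Affymetrix arrays, biotin-labelled with a 3' IVT kit per the labels' protocols. The deposited values are log2 signals. The submitters' processing notes name RMA as the authors' method. Its version, and whether it ran on all arrays at once, are not given in the sources used here. The values were used as deposited. Of 45101 probe sets 34958 named 1 gene symbol. Each gene took its probe set of highest mean, and a gene was tested where 3 or more arrays exceeded 6.70, the median of the table. For Socs1 these were PBS pump replicate 3 (7.34) and PBS gavage replicates 2 and 3 (6.83 and 7.13) of week 13. All are vehicle arrays, and Socs1 exceeded 6.70 on no treated array. A model with a mean for each of the 13 groups was fitted to 47 arrays by limma 3.58.1 (R 4.3.3), with Benjamini-Hochberg adjustment within a comparison and a threshold of 0.05. Replicate numbers were not used to pair arrays in the reported fit. Same-number correlations ran from -0.49 to 0.24 with group means removed, over whole arrays of uneven makeup, so they cannot show that no pairing existed. The members, gene lists and arrays left out were chosen with earlier results of these data known. Named are the 6 members, up to 4 called genes of smallest p in each list and comparison, and the 5 genes most like each member. Alternatives changed normalization, filter, vehicle, probe set summary and arrays included. The fit was tested on simulated data. The number of arrays limits precision. One of the gene lists is not reported here.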

Additional observations from a re-analysis of the deposited data

Results flagged for a closer look

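Each array's deviation was checked in 30 groups of 4 or 5 values of a member, and none stood apart from the others of its group. Smaller groups, among them every group of week 13, were not checked. Effects that differed between times were those of jak3i on Socs1 and Pim1 (week 13 minus week 6, -1.04 and -0.55) and of jak12i on Socs1 (-1.06), each from limma's test of the difference itself. For Socs1, vehicle levels near or close to background at week 6 left little or no room for a fall there. The week 5 array whose title and treatment label conflict entered no comparison. Its Socs3 signal of 10.59 lay above the il15rb arrays of that week (10.12 to 10.29) and the PBS ip and sham arrays (9.79 to 10.51). Its Bcl2 signal of 8.94 also lay above both, 8.19 to 8.77 in il15rb and 8.26 to 8.92 in PBS ip and sham arrays. Its Pim1 signal of 9.97 lay within the il15rb arrays (9.91 to 10.09) and above the PBS ip and sham arrays (9.57 to 9.91). Its Socs1 signal of 5.31 lay below 5.52 to 5.69 in il15rb and 5.40 to 5.81 in PBS ip and sham arrays. Its Socs2 signal of 9.32 lay within 9.30 to 9.53 in il15rb and 8.74 to 10.12 in PBS ip and sham arrays, and its Cish signal of 9.54 within 9.51 to 9.93 and 8.91 to 9.90.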

How the results depend on the processing

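Over settings other than leaving out an array, 919 of 1002 member results kept direction and side of the threshold. With 1 array left out 1096 of 1194 did. Most of these member results were not called as reported and stayed so, hence the shares say little of the calls themselves. Of the week 13 calls under a single agent, those of Socs2, Socs3, Cish and Pim1 were each lost without at least 1 array, and those of Socs1 without none. The number of members called under jak12i at week 13, 1, became 2 with quantile normalization, with the mean of a gene's probe sets and without the 6 arrays apart in muscle or hair genes, 4 against PBS of another route and 3 against PBS of all routes. None of those 6 arrays was in the jak12i or PBS gavage groups of week 13, so member changes there kept their size and only SE and p moved. Under il15rb at week 13 the 2 became 1 with only the comparison's own groups and without the 6 arrays, and 4 against all routes. The 4 under jak3i became 1 with only its own groups, and 2 against another route and without the 6 arrays. At week 6 the 0 under jak3i became 2 against another route and 1 against all routes, and the 0 under jak12i became 1 against another route and with the mean of probe sets. Leaving out 1 array gave 1 to 2 members under il15rb, 2 to 3 under jak3i and 1 to 2 under jak12i. Against another route Pim1 at week 6 reversed to -0.39 under jak3i and 0.41 under jak12i, and under jak12i so did Cbl (0.0803), Pias1 (0.18), Jak2 (0.0135) and Stat6 (0.20). The PBS routes of week 6 differ in 37.2% of genes. With a replicate block Socs3 under jak3i at week 13 lost its call (adjusted p = 0.0516). Beside leaving out an array, counts of all genes called at week 13 ranged from 816 to 4850 under il15rb (3512 as reported), 496 to 2892 under jak3i (2182) and 1907 to 5274 under jak12i (2987). At week 6 they ranged from 296 to 6246 under jak3i (559) and 442 to 3975 under jak12i (1308), and at week 5 from 1 to 39 under il15rb (10). The cause of these changes was not tested. Low signal limits Socs1 at weeks 5 and 6.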
